A study of Ovis aries with 2 samples.

Results

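The subject is the set of microglial nuclei in the post-processed library of a sheep brain study, and how far these nuclei differ from each other in genes of cell activation. A nucleus was a member when its barcode had at least 500 detected genes, at least 3 unique molecular identifiers (UMIs, one per captured RNA molecule) and at least 3000 counts per 1000000 UMIs (CPM) summed over CSF1R, P2RY12, INPP5D, C1QB and C1QC, and under 2000 CPM summed over the myelin genes UGT8, ST18, ERMN and CLDN11. Of the 228 post-processed barcodes with at least 500 genes, 114 were members, which is 50% (exact Clopper-Pearson 95% interval 43.3 to 56.7%). The library held 905 barcodes and the series 3030. Because measured values chose the members, the levels of these 9 genes and the numbers of detected genes are given as a description only.

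The study profiled nuclear RNA of the cerebral cortex of a wildtype adult Rambouillet ewe, within 18 to 36 months of age by the labels and untreated before death, in 2 single-nucleus libraries. By the series description, the pre-processed library was made without removal of debris and red blood cells, and the post-processed library after it. The treatment label of the latter, however, speaks of no such removal, so its condition is taken from its title. Both libraries carry the same batch label. Each condition has 1 library without a replicate, and nuclei of 1 library are not replicates, so no test was run and every interval covers counting error only.

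Microglia are the resident macrophages of the brain. In the undisturbed cortex they are known for surveying the tissue with receptors such as P2RY12, which senses purine nucleotides, and CSF1R, which carries the survival signal of these cells. When cells are stimulated, immediate early genes such as FOS and JUN, which encode the subunits of the transcription factor AP-1, are transcribed within minutes without new protein synthesis. Feedback genes such as the phosphatases DUSP2 and DUSP6 and the RNA decay factor ZFP36L1 follow, and NF-kB targets and cytokines such as IL1A mark the inflammatory arm.

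The members held 262911 UMIs, from 744 to 13493 per nucleus with a median of 1603.5, and 503 to 3002 detected genes. Only part of the genome's genes were analysed here, so CPM refers to the listed genes, and markers such as CX3CR1 and TMEM119 are not analysed here. The nearest barcodes on either side of each limit had 3341 and 2980 CPM of the selection genes, 1991 and 2076 CPM of the myelin genes, and 503 and 497 detected genes. The same rule found 75 of 2121 pre-processed barcodes (3.54%, 2.79 to 4.41%), with a median of 1265 UMIs. No barcode sequence occurred in both libraries.

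Microglial genes outside the rule were present alongside those it used. INPP5D, a lipid phosphatase of blood-lineage cells and one of the selection genes, had UMIs in 114 of 114 members, at 764 CPM in the lowest, 4385 in the median and 14365 in the highest. P2RY12 was found in 102 members, with a median of 2272 CPM and a highest value of 13465. Outside the selection, RUNX1, a transcription factor of the blood lineage, was found in 105 members with a median of 2364 CPM, and MERTK, a receptor for the uptake of dying cells, in 88 with a median of 891. TMCC3 was the most abundant gene described here, in 113 members at a median of 9925 CPM.

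Some markers of several other cell types were at 0, while other markers on the same lists were present. None of the 9 perivascular macrophage markers was among the genes analysed here, so that cell type could not be checked. Of 14 neuronal markers GRIN1, STMN2, NEFL, NEFM and CAMK2A were at 0 UMIs, and the list summed to a median of 2644 CPM, with 628 of its 890 UMIs from MAP2. GJA1, NTSR2 and MLC1 of 6 astrocyte markers, PDGFRA, OLIG2 and NEU4 of 8 precursor markers, and S100A9, LYZ, PLAC8 and ELANE of 8 monocyte and granulocyte markers were also at 0. These 3 lists held 25, 94 and 9 UMIs, each with a median of 0 CPM per member. Lymphocyte markers held 267 UMIs, 233 of them from BANK1, with a median of 851 CPM. Mural and fibroblast markers held 246 UMIs, 186 of them from COL1A2, with a median of 0 CPM. Other oligodendrocyte markers were present, at a median summed level of 9684 CPM per member, and 12 members had at least 2000 CPM of the 11 endothelial markers.

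FOS, an immediate early transcription factor, was absent from some members and among the leading genes of others. The members held 889 FOS UMIs, or 3381 CPM (3163 to 3611). The lowest member had 0 CPM, the median 2520 and the highest 21867. No FOS UMI was found in 17 members, 1 or 2 in 17, 3 to 9 in 57 and 10 or more in 23. The 17 members without FOS were of ordinary depth, with 882 to 2775 UMIs and a median of 1384, so their zeros were not confined to the shallowest nuclei.

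With every nucleus thinned at random to 500 UMIs, which left no member out, FOS was found in 71 of 114 members, or 62.3% (52.7 to 71.2%). Without thinning the share was 85.1%. At 500 UMIs the share was 0 of 75 in the pre-processed nuclei chosen by the same rule, which allows a share of up to 4%. In the post-processed library it was 15 of 25, or 60% (38.7 to 78.9%), in nuclei with both microglial and myelin RNA. It was 4 of 40, or 10% (2.79 to 23.7%), in myelin-rich nuclei without any UMI of the selection genes, whose median depth was 2523 UMIs. The members lay above this share. However, the myelin-rich set by definition leaves out every nucleus with a selection-gene UMI, including any that held stray microglial RNA. Its values are therefore not a measure of the background of FOS or of other genes found in microglia.

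FOS was also abundant in the post-processed barcodes with the least RNA. Barcodes with under 100 detected genes, 411 in all and with a median of 64 UMIs, held 4277 CPM of FOS, above the 3381 CPM of the members. The myelin-rich nuclei of the same library held 244 CPM. DMP1 stood at 2069 CPM and IL1A at 414 CPM in the barcodes under 100 genes, against 18.1 and 0 CPM in the myelin-rich nuclei. The barcodes under 100 genes also held 2173 CPM of INPP5D and 4277 CPM of TMCC3. Free RNA and fragments of damaged nuclei cannot be told apart in these barcodes, and the part of such RNA in the spread between members was not tested.

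**Figure D1:**
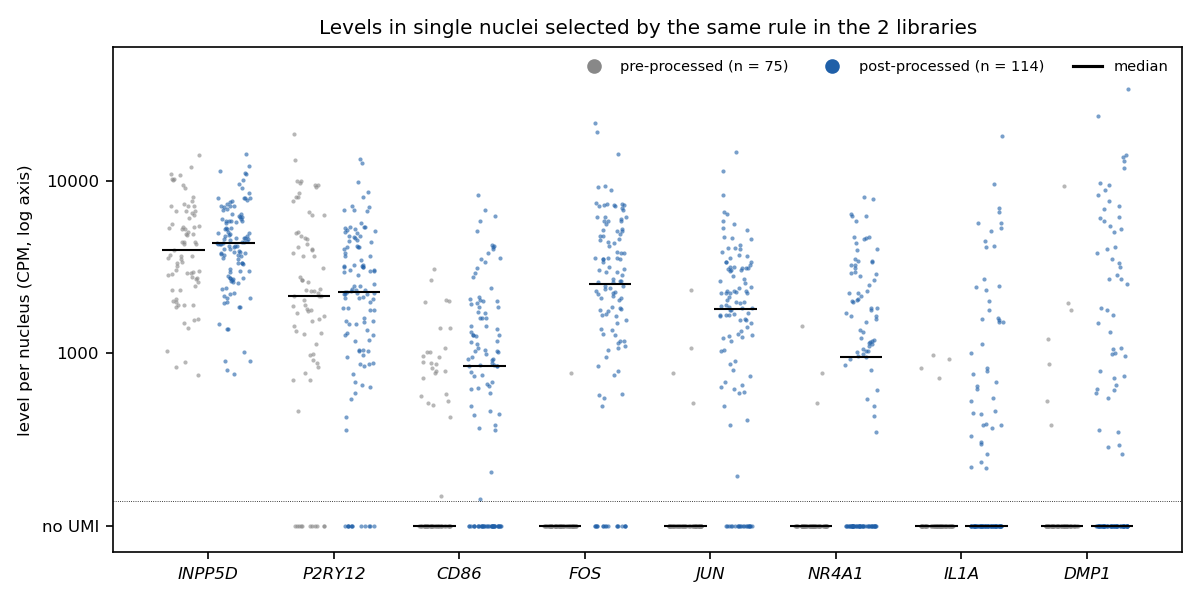
Level of 8 genes in each nucleus chosen by the same rule in the pre-processed (grey, n = 75) and post-processed (blue, n = 114) libraries, in CPM on a log axis. Each point is a nucleus, nuclei with no UMI are drawn on the bottom line and black bars are medians. INPP5D and P2RY12, which the rule used to choose both sets, cover similar ranges. FOS, which it did not use, has a median of 2520 CPM in the post-processed nuclei and 0 in the pre-processed ones.

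JUN, the partner of FOS in AP-1, was spread in a similar way. It was found in 93 members, at 0 CPM in the lowest, 1813 in the median and 14738 in the highest. NR4A1, an orphan nuclear receptor induced early after stimulation, was found in 66 members with a median of 959 CPM and a highest value of 8079. KLF2, a zinc finger factor, was found in 70 members, JUND in 64, JUNB in 51, NR4A2 in 43, EGR3 in 18, NR4A3 in 15 and KLF4 in 13. EGR1 had 3 UMIs in all.

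Counted together at 500 UMIs, 53 of 114 members had UMIs of 3 or more of the 16 listed immediate early genes, 28 of 2 genes, 19 of 1 gene and 14 of none. The share with none was 12.3% (6.88 to 19.7%). It was 81.3% (70.7 to 89.4%) in the pre-processed set, where no nucleus had UMIs of more than 1 of these genes. In the microglial and myelin nuclei 5 of 25 had none. In the myelin-rich nuclei, a set that leaves out any nucleus with a selection-gene UMI, 33 of 40 had none. The absence of immediate early RNA was thus the less common state among the members.

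The spread of each gene was measured by a dispersion index, which compares a gene's counts per nucleus with those expected from nucleus depth alone and is 1 for counting noise. Over the 1208 genes with at least 50 UMIs the median was 1.66, and 46 genes (3.81%) exceeded 5. FOS reached 6.35, 25th from the top, and stayed at 6.41 without the member holding most FOS UMIs. JUN reached 3.99, NR4A1 3.89, DUSP6 4.26 and ZFP36L1 6.41. Of the selection genes, which the rule used, P2RY12 had 3.90, INPP5D 2.42 and C1QB 0.97, and MERTK, which it did not use, had 1.22. The rule sets a lower limit on the summed selection genes, so their indices are shaped by it and are not compared with that of FOS. KLF2 (1.47), JUNB (1.66) and JUND (1.96) lay near the median of all genes, so the excess was not shared by every immediate early gene. The index grows with a gene's UMIs, and these 3 had 113 to 178.

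Several genes varied more than FOS. DMP1, an acidic phosphoprotein best known from bone and dentin matrix, had an index of 18.3, CALCR, the calcitonin receptor, 15.3, PDK4, a kinase that restrains pyruvate oxidation, 13.2, IL1A 11.2 and ANXA1, a phospholipid-binding protein known for restraining inflammation, 9.82. Without the single member richest in each, these became 16.9, 13.1, 8.69, 10.2 and 9.62. The highest index of all belonged to EPAS1, a hypoxia-inducible factor abundant in endothelium, at 21.8. Of its 108 UMIs 52 lay in 1 member, and the index was 10.2 without it. RARRES1 and TIMP3 fell from 13.1 and 12.5 to 1.76 and 2.02 when their richest member was left out, so their spread rested on that nucleus. LYN, a tyrosine kinase of immune receptors, fell from 8.43 to 2.15 in the same way.

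**Figure D2:**
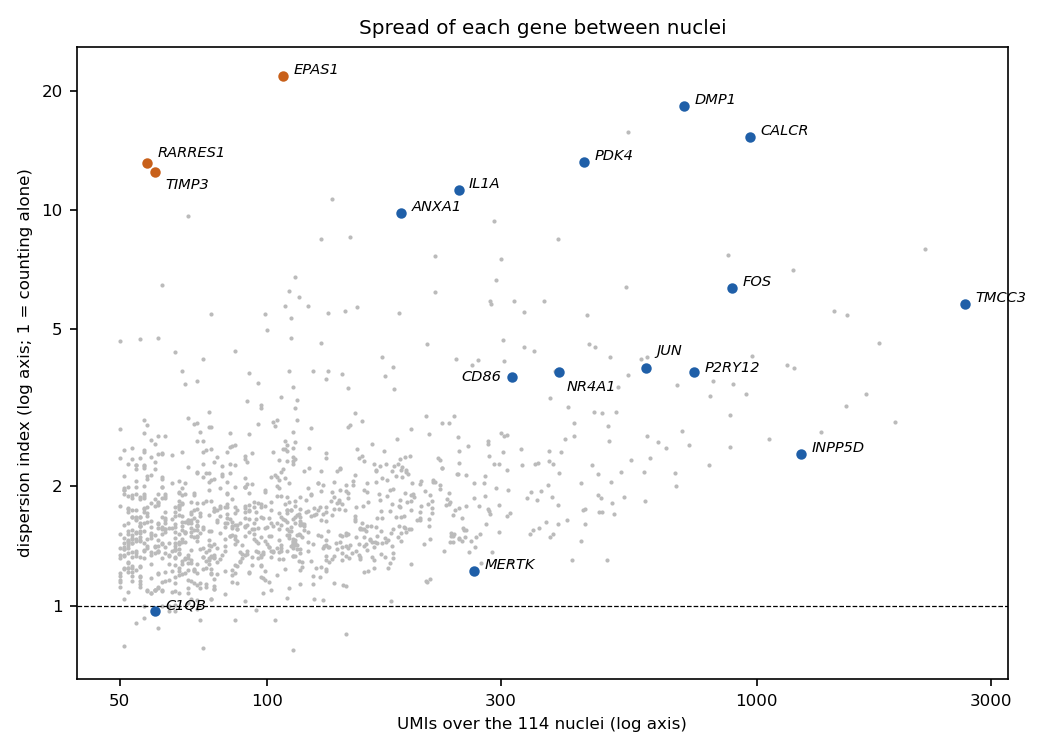
Dispersion index of 1208 genes over the 114 members against their summed UMIs, both on log axes. Grey points are genes, blue and orange points are named ones, orange for EPAS1, RARRES1 and TIMP3, where 1 nucleus held much of the RNA. The dashed line at 1 is counting alone, and DMP1, CALCR, PDK4, IL1A and FOS lie far above the median of 1.66.

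IL1A, which encodes interleukin 1 alpha, was concentrated in few members. It was absent from 68, present with 1 or 2 UMIs in 24 and with 3 or more in 22. The median was 0 CPM, the 90th percentile 2623 and the highest value 18301. At 500 UMIs it was found in 24 of 114 members (21.1%, 14.0 to 29.7%). The 5 members richest in IL1A held 28, 30, 14, 10 and 13 UMIs of it, and 7, 9, 3, 0 and 6 UMIs of FOS. High IL1A thus occurred with FOS at 4575 CPM and also with none. All 5 retained P2RY12, at 1322 to 5298 CPM. IL1B, the related cytokine, had 9 UMIs in all members together.

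DMP1 was absent from 62 members and held 3 or more UMIs in 34. Its median was 0 CPM, its 90th percentile 7089 and its highest value 34431. At 500 UMIs it was found in 30 members (26.3%, 18.5 to 35.4%). The 5 members richest in DMP1 held between 13022 and 34431 CPM of it. Their FOS lay between 2245 and 7485 CPM, and 2 of the 5 had no IL1A UMI. At 500 UMIs 11 members held both IL1A and DMP1, 13 IL1A alone, 19 DMP1 alone and 71 neither.

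CD86, a costimulatory surface protein of antigen-presenting cells, was more evenly spread. It was found in 76 members, with a median of 842 CPM, a highest value of 8343 and an index of 3.79. At 500 UMIs it was found in 45 members (39.5%, 30.4 to 49.1%). Of these 45, 32 also had FOS.

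CALCR was found in 100 members, at a median of 2103 CPM and a highest value of 27391. One of the 5 members richest in CALCR, with 19953 CPM, had no FOS UMI, and the other 4 had 2245 to 6226 CPM of FOS. PDK4 was found in 63 members, at a median of 453 CPM, and 42 of its 444 UMIs lay in 1 nucleus at 27541 CPM. In the 5 members richest in PDK4 the FOS level lay between 553 and 6840 CPM. The 5 members richest in FOS itself held 9269 to 21867 CPM of it, and 4 of them had no IL1A UMI.

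**Figure D3:**
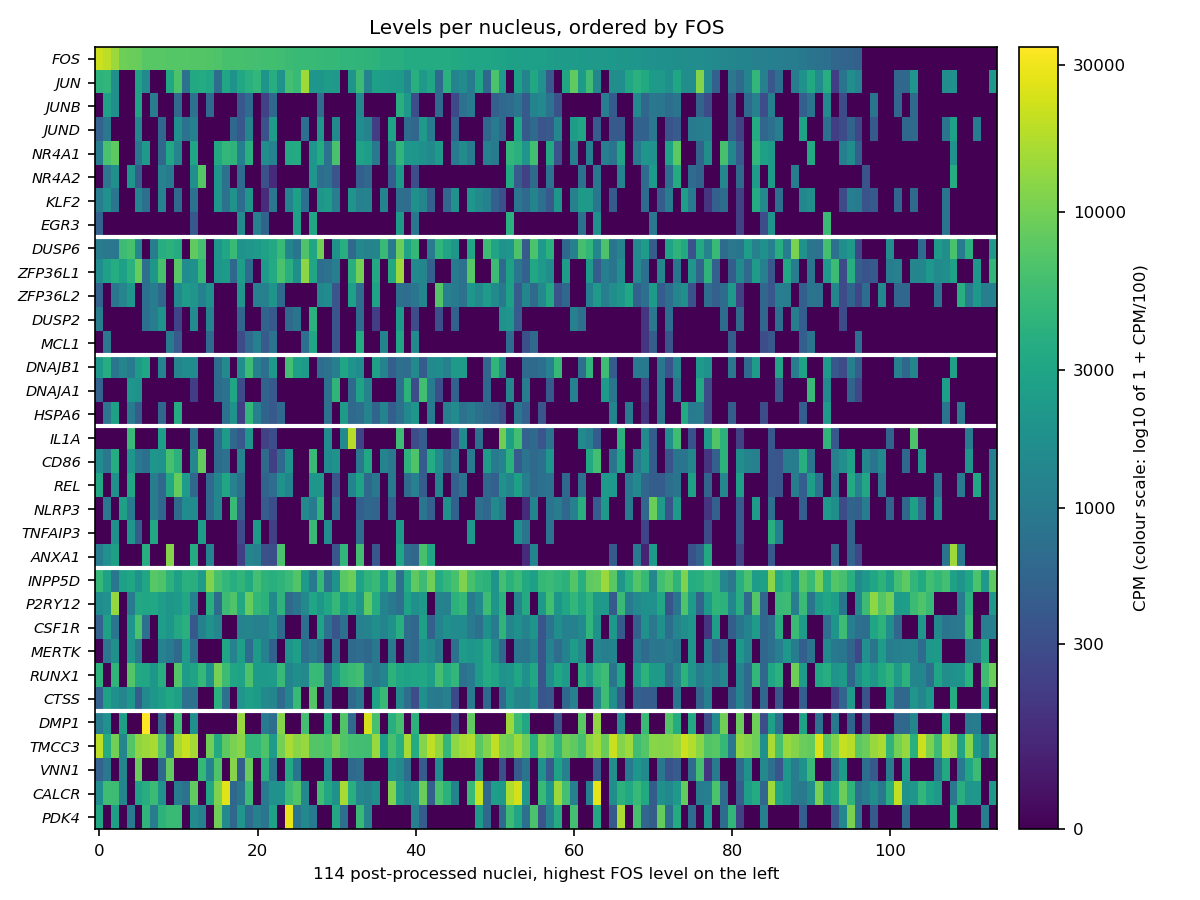
CPM of 33 genes (rows) in the 114 members (columns), ordered from the highest FOS on the left to the 17 members without FOS on the right, with a log colour scale. White lines separate immediate early, feedback, heat shock, inflammatory, microglial and variable genes. INPP5D and TMCC3 are filled across the whole width, while IL1A, DMP1 and PDK4 appear as scattered bright columns.

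The members were then cut by FOS at 500 UMIs. The 71 FOS-positive members held 165067 UMIs with a median of 1589 per nucleus, and the 43 FOS-negative members 97844 with a median of 1619, so the sides did not differ in depth by much. The cut divides a range and not 2 cell types. Of the FOS-positive members 27 sat at exactly 1 thinned FOS UMI, and 26 of the FOS-negative members had FOS before thinning. Ratios below are log2 of CPM from summed unthinned counts, FOS-positive over FOS-negative, with 0.5 counts added, and brackets give the exact counting interval.

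Of 1841 genes with at least 30 UMIs, 79 (4.29%) were at least 2-fold higher on the FOS-positive side and 52 (2.82%) at least 2-fold lower, and the median ratio was -0.03. These lists depended on the random draw. A first draw, in which all members shared a random stream, gave 73 FOS-positive members and 92 and 71 genes. It shared 22 of the 79 higher genes, which is 27.8% of that list and 23.9% of its own. Of the 52 lower genes it shared 18, or 34.6% and 25.4%. Another seed shared 27 and 16. Many genes below are therefore given with a range. Unless stated otherwise, it is the lowest and highest ratio over the alternatives that could be computed, 19 at most, the cut by JUN left out. For other genes only single alternatives, or none, are given.

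Immediate early factors leaned towards the FOS-positive side. All 9 with at least 20 UMIs had ratios above 0, with a median of 0.65 beside -0.03 for all genes. Of the 9, 2 were at least 2-fold higher, against 4.29% of the 1841 genes with at least 30 UMIs. Listed genes needed only 20 UMIs, so the counts here and below are not matched to that share in depth. JUN stood at 2732 against 1472 CPM, with medians per nucleus of 2231 and 1233 CPM, a ratio of 0.89 (0.62 to 1.17) and a range of 0.75 to 2.45 over the alternatives. NR4A1 stood at 1733 against 1104 CPM, a ratio of 0.65 (0.33 to 0.98) with a range of 0.18 to 4.10. The nuclei overlapped widely, since the highest FOS-negative member had 8274 CPM of JUN and 6237 of NR4A1. NR4A2 stood at 539 against 266 CPM, with an interval of 0.38 to 1.71 on the ratio, and EGR3 had a ratio of 1.65 (0.72 to 2.84), but NR4A2 dropped to -0.08 at 1000 UMIs and EGR3 to 0.03 in the first draw. JUND had 0.48 and fell to -0.80 with each member weighted equally.

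Feedback genes followed in part. Of 9 measured, 7 had ratios above 0 and 4 stood 2-fold or more above, against 4.29% of all genes with at least 30 UMIs. Their median was 0.63 beside -0.03 for all genes. ZFP36L1 stood at 2587 against 1165 CPM, a ratio of 1.15 (0.85 to 1.46) with a range of 0.35 to 1.62. DUSP6, a phosphatase that switches off the kinase ERK, stood at 2611 against 1686 CPM, a ratio of 0.63 (0.37 to 0.90) with a range of 0.44 to 1.37. DUSP2 had 1.33 (range 0.68 to 4.41) and MCL1, a short-lived survival protein, 1.92 (range 1.11 to 3.93). SGK1, a stress-regulated kinase, had -0.88 with an interval that held 0.

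Heat shock genes leaned the same way, with 7 of 8 above 0 and a median of 0.68 beside -0.03 for all genes. Of these 8, 3 were past 2-fold, against 4.29% of all genes with at least 30 UMIs. HSPA6, a strictly inducible member of the HSP70 family, stood at 594 against 256 CPM, a ratio of 1.20 (0.57 to 1.91) with a range of 0.84 to 2.41. The cochaperones DNAJA1 and DNAJB1 had 1.43 (range 0.63 to 1.94) and 0.54 (range 0.21 to 1.90). HSPA5, the chaperone of the endoplasmic reticulum, had 1.17 on 54 UMIs, with a range of 0.33 to 3.80.

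In the inflammatory arm, 10 of 12 NF-kB pathway genes and effectors had ratios above 0. Of the 12, 4 passed 2-fold, against 4.29% of all genes with at least 30 UMIs, and 1 of these 4, TNIP1 (1.86), had only 24 UMIs. The median of the 12 was 0.47 beside -0.03 for all genes. REL, an NF-kB subunit, had 0.50 (0.12 to 0.91) with a range of 0.16 to 0.71. TNFAIP3, a brake on NF-kB, had 1.70 but -0.55 in the first draw. SAMSN1 had 1.78 and 0.79 without the member that held 35 of its 77 UMIs. CD86 stood at 1296 against 1042 CPM, a ratio of 0.31 whose interval (-0.03 to 0.67) held 0. Over 18 alternatives, the cut by JUN included, it ranged from 0.15 to 0.94.

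IL1A stood at 1042 against 756 CPM, a ratio of 0.46 (0.06 to 0.88). It was 0.21 without its richest member, -0.10 with another seed and -0.41 with a minimum of 1000 genes, so its direction depended on the setting. Its highest ratio over 18 alternatives, the cut by JUN included, was 1.55. DMP1 stood at 3017 against 2177 CPM, a ratio of 0.47 (0.24 to 0.71), and at 0.07 without its richest member. Over 18 alternatives, the cut by JUN included, DMP1 ranged from -0.19 to 2.915. At 500 UMIs IL1A was found in 19 of 71 FOS-positive and 5 of 43 FOS-negative members, and DMP1 in 22 and 8. ANXA1 had 0.74 and fell to -0.19 with another seed. Neither side was free of any of these genes.

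The more abundant genes of the rule, and TMCC3, had ratios near 0. INPP5D stood at 4683 against 4660 CPM (0.01, -0.16 to 0.18), P2RY12 at 2732 against 2995 (-0.13, -0.35 to 0.08), CSF1R at 1490 against 1400 (0.09, -0.22 to 0.40) and TMCC3 at 10117 against 10159 (-0.01, -0.12 to 0.11). INPP5D, P2RY12 and CSF1R belong to the rule. TMCC3 does not, but it was listed with the DMP1 group and not as an identity gene. With FOS-positive set at 1 unthinned UMI, P2RY12 reached -0.85. MERTK had -0.03 and DOCK8, a regulator of immune cell migration, -0.002. Of 6 homeostatic genes outside the selection 2 had ratios above 0, with a median of -0.07. Those above 0 were P2RY13, a purine receptor, at 1.71 (0.63 to 3.20) on 48 UMIs, with a range of 0.45 to 1.80, and the complement gene C1QA at 0.65 (-0.23 to 1.69). The complement gene C3 had -0.52 (-1.12 to 0.10), and C1QB, part of the rule, 0.64 (-0.19 to 1.60).

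Among antigen presentation and lysosomal genes, CD74, the invariant chain of MHC class II, stood at 582 against 276 CPM, a ratio of 1.06 (0.45 to 1.75) with a range of 0.30 to 1.83. CTSS, the protease that processes it, stood at 1169 against 654 CPM, a ratio of 0.83 (0.42 to 1.27) with a range of 0.21 to 1.19. CTSB had 1.21 and -0.62 with another seed. The complement gene C1QC, part of the rule, had 0.92, and -0.31 with FOS-positive defined by any unthinned UMI.

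The 12 genes with the highest ratios were TNFSF8, NT5C3A, MAPK1IP1L, MCL1, HBEGF, SAMSN1, RPL7, EFCAB14, P2RY13, TNFAIP3, MACO1 and EGR3. TNFSF8, a ligand of the tumour necrosis factor family, led at 4.07, but 26 of its 43 UMIs lay in 1 member and its ratio was -1.81 with another seed. HBEGF, a growth factor ligand of the EGF receptor and itself an early response gene, had 1.88 (0.74 to 3.51) on 46 UMIs with a range of 0.39 to 2.38. MAPK1IP1L had 1.94 with a range of 0.64 to 2.62, and NT5C3A 2.74 with a range of 0.27 to 3.21. RPL7, EFCAB14, SAMSN1 and TNFAIP3 each turned negative in at least 1 alternative, as did TNFSF8.

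Among the 12 lowest were CYYR1, AVL9, MAP4K5, TFG, ST7L, SLC11A2, SLC39A10, PDE7B, ITGA6, MAPK10 and PREX2. CYYR1 led at -2.57, and at -0.47 without the FOS-negative member that held 26 of its 42 UMIs. That same member held 33 SLC39A10 and 10 PREX2 UMIs, and 10358 CPM of endothelial markers. AVL9 (-1.92), ST7L (-1.63), ITGA6 (-1.41) and MAPK10 (-1.29) stayed below 0 in every alternative computed, on 33, 43, 44 and 37 UMIs. The other 7 of those named crossed 0 in at least 1.

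The 12 members with at least 2000 CPM of endothelial markers comprised 8 FOS-positive and 4 FOS-negative nuclei. The summed endothelial level ranged from 0 to 13609 CPM on the FOS-positive side and from 0 to 10449 on the FOS-negative side, with medians of 421 and 478. Neuronal markers had medians of 2737 and 2295 CPM and oligodendrocyte markers of 9593 and 10108. Lymphocyte markers exceeded 2000 CPM in 13 FOS-positive and 9 FOS-negative members, and mural and fibroblast markers in 11 and 4. Of the 11 listed endothelial markers none was at 0. The part of RNA from these cells in the ratios was not tested. Without the 12 endothelial-rich members 77 and 41 genes passed the 2-fold limits, and 58 of the 79 and 21 of the 52 recurred.

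**Figure D4:**
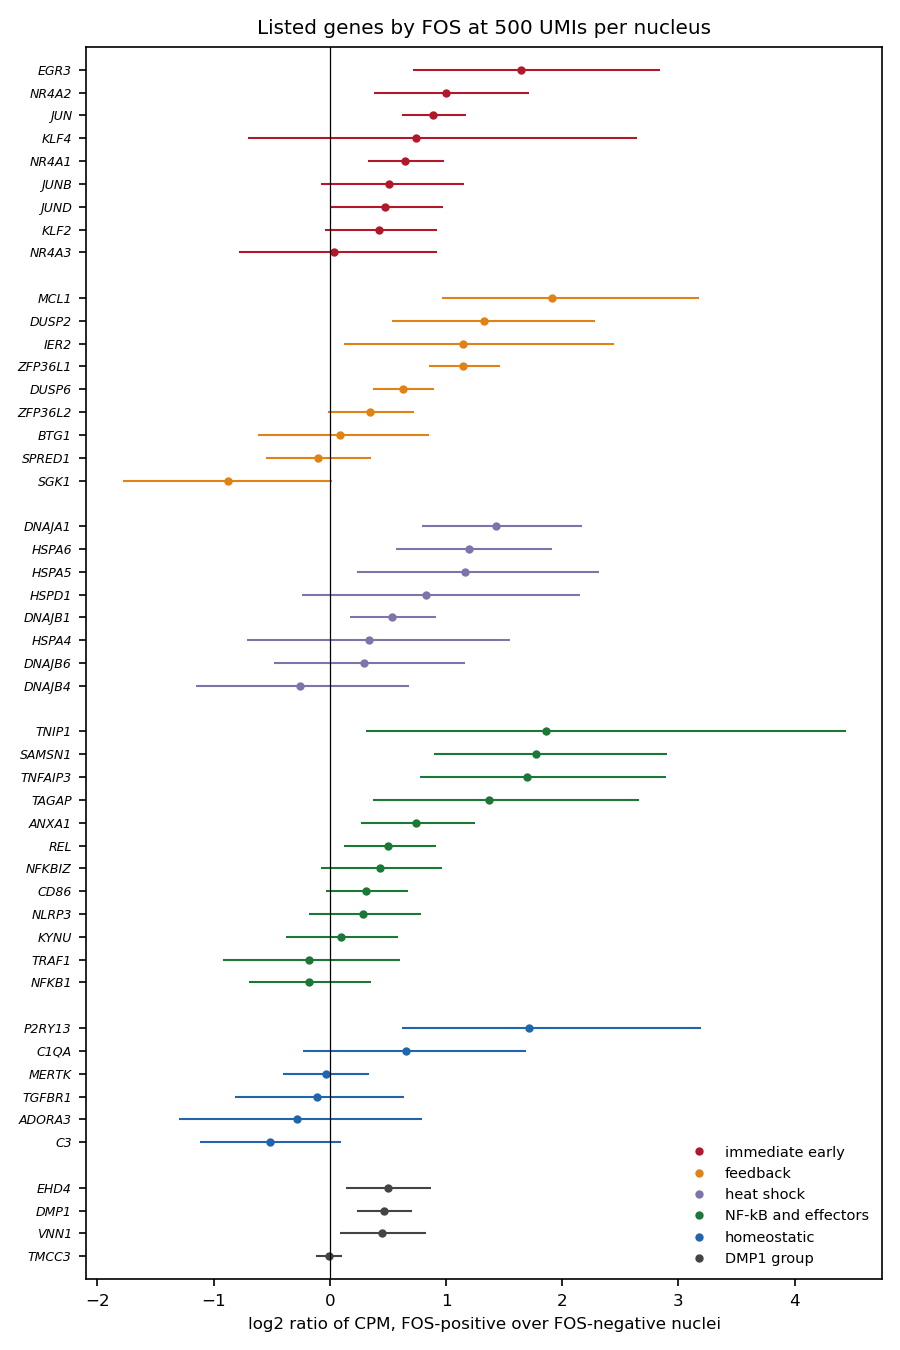
Log2 ratio of CPM in 71 FOS-positive over 43 FOS-negative members for listed genes with at least 20 UMIs, coloured by list. Points are ratios, lines are exact 95% intervals for counting error and the vertical line is no difference. Every immediate early gene lies right of 0, JUN at 0.89, whereas TMCC3 lies at -0.01 and MERTK at -0.03.

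Over single members without a cut, the genes most like FOS by rank correlation of CPM included JUN (Spearman rho 0.40), DNAJB1 (0.36), NR4A1 (0.35), CTSS (0.35), GLIS3 and ZFAND5 (both 0.34), HSPA6 (0.33), RPS23 (0.30) and PDK4 (0.29), each over 114 nuclei. The median over 1207 genes was -0.003, and 5% of them exceeded 0.20. FOS had a rho of -0.05 with total UMIs. With every member thinned to 500 UMIs the values were lower, at 0.25 for JUN, 0.22 for NR4A1, 0.21 for DNAJB1 and HSPA6 and 0.14 for PDK4. These points share a library and its depth, and the counts are sparse, so the values describe a weak likeness only. JUN, NR4A1, DNAJB1, HSPA6 and CTSS recur from the cut by FOS, which used the same counts.

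**Figure D5:**
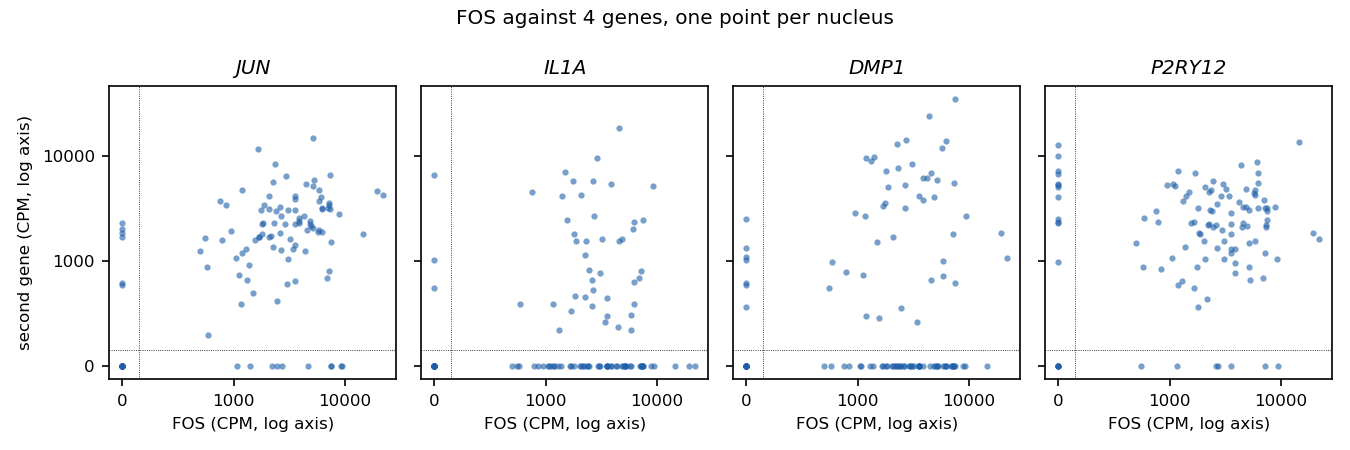
FOS level against JUN, IL1A, DMP1 and P2RY12 in the 114 members, in CPM on log axes, with nuclei without a UMI drawn at 0. Each point is a nucleus. JUN rises loosely with FOS (Spearman rho 0.40, and 0.25 at 500 UMIs), while many nuclei with high FOS lie on the bottom line for IL1A and DMP1.

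At 500 UMIs 46 members held both FOS and JUN, 25 FOS alone, 18 JUN alone and 25 neither. FOS and NR4A1 occurred together in 31 members, with 40 FOS alone and 8 NR4A1 alone. Of the 17 members without any FOS UMI before thinning, 6 had JUN, 1 had NR4A1, 8 had DUSP6 and 3 had IL1A. In the same 17, 15 had CALCR and 7 each had CD86 and DMP1. CSF1R was found in 13 and P2RY12 in 12, but both belong to the rule that every member had to meet, so these counts are a description only.

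Cuts by 6 other genes at 500 UMIs were added after the data had been seen. The ratio of summed FOS had intervals that held 0 in the cuts by IL1A (0.11, -0.11 to 0.32), DMP1 (0.02, -0.18 to 0.22) and CALCR (0.04, -0.17 to 0.25). The shares of members with FOS at 500 UMIs were further apart, at 79.2% of IL1A-positive against 57.8% of IL1A-negative members and 73.3% against 58.3% for DMP1, but 61.0% against 64.9% for CALCR. The exact intervals of the IL1A shares, 57.9 to 92.9% and 46.9 to 68.1%, overlapped. Across the cut by CD86 summed FOS stood at 0.23 (0.03 to 0.43), with shares of 71.1% and 56.5%. It was higher on the PDK4-positive side, at 4237 against 2933 CPM (0.53, 0.34 to 0.72). Across the PDK4 cut, 67 genes (3.64%) were 2-fold higher and 69 (3.75%) lower, with NR4A1 at 0.86, JUN at 0.44 and REL at 0.91.

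In the cut by IL1A, 24 against 90 members, 73 genes (3.97%) were 2-fold higher and 111 (6.03%) lower. NFKBIZ, an inducible NF-kB cofactor, stood at 941 against 449 CPM (1.07, 0.58 to 1.55) and ANXA1 at 1239 against 536 (1.21, 0.78 to 1.64). Without their richest members these ratios became 0.87 and 0.79. After thinning, ANXA1 was found in 5 of 24 IL1A-positive and 17 of 90 IL1A-negative members (20.8% and 18.9%). Its median was 0 CPM on both sides. The higher ANXA1 sum thus did not come with a clearly larger share of members holding it. CD86 was lower, at 776 against 1347 CPM (-0.78, -1.25 to -0.36), and stayed at -0.74 without its richest member. P2RY12 (0.16, -0.09 to 0.39) and INPP5D (-0.14, -0.34 to 0.05) had intervals that held 0. In the cut by CD86, in turn, IL1A was lower on the CD86-positive side, at 639 against 1088 CPM (-0.76, -1.22 to -0.33).

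In the cut by CALCR, 77 against 37 members, 101 genes (5.49%) were 2-fold higher and 50 (2.72%) lower. IL1A stood at 1192 against 323 CPM (1.86, 1.29 to 2.54) and NFKBIZ at 733 against 194 (1.88, 1.15 to 2.80), and both held without their richest member, at 1.67 and 1.78. REL was lower, at 760 against 1562 CPM (-1.04), and at -0.57 without its richest member. The CALCR-positive members were deeper, with a median of 1703 against 1357 UMIs.

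In the cut by DMP1, 30 against 84 members, 73 genes (3.97%) were 2-fold higher and 86 (4.67%) lower. IL1A stood at 1450 against 669 CPM (1.12, 0.74 to 1.49), and at 1.52 without its richest member. In the cut by IL1A, in turn, DMP1 stood at 3852 against 2312 CPM (0.74, 0.51 to 0.96). Without the member that held 143 DMP1 UMIs, that ratio was -0.18 (-0.50 to 0.11), so the link did not hold from that side. Summed FOS stood at 0.02 in the cut by DMP1. Of 10 immediate early factors, FOS included, 9 had ratios above 0 and 4 passed 2-fold. These were NR4A3 (1.97, 1.14 to 2.89), EGR3 (1.71, 0.96 to 2.52), NR4A2 (1.53, 0.98 to 2.11) and KLF4 (1.51, 0.12 to 3.03), and without their richest members they had 1.66, 1.19, 1.41 and 1.03. JUN had 0.17 and NR4A1 0.58. VNN1, a pantetheinase, was lower, at 636 against 1368 CPM (-1.09, -1.55 to -0.68), although VNN1 (1.92) and DMP1 (3.75) were both higher in the members than in the pre-processed nuclei of the same rule. Median depth was 1845.5 against 1591.5 UMIs.

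When cut by CD86, 45 against 69 members, 48 genes (2.61%) were 2-fold higher and 74 (4.02%) lower. REL stood at 1468 against 754 CPM (0.96, 0.60 to 1.32) and EHD4, an endocytic recycling protein, at 1670 against 898 (0.89, 0.56 to 1.23). Without their richest members these became 0.53 and 0.70. In the cut by P2RY12, 79 against 35 members, 64 genes (3.48%) were 2-fold higher and 57 (3.10%) lower. P2RY12 belongs to the rule, so members without it had to pass through the other selection genes. The 2 sides are thus shaped by the rule, and the ratios across this cut are a description only. JUN was lower on the P2RY12-positive side, at 1958 against 2888 CPM (-0.56, -0.80 to -0.32), as was ANXA1, at 453 against 1252 (-1.46), and they stayed at -0.65 and -1.16 without their richest members. After thinning, however, ANXA1 was found in 15 P2RY12-positive and 7 P2RY12-negative members (19.0% and 20%), with a median of 0 CPM on both sides. The lower ANXA1 sum thus did not come with a clearly smaller share of members holding it. FOS stood at 3141 against 3873 CPM (-0.30, -0.50 to -0.10), and at -0.18 (-0.39 to 0.04) without its richest member. Only 1 draw was made for each of these 6 cuts.

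Against the pre-processed nuclei of the same rule, 213 of 1736 genes (12.3%) were at least 2-fold higher in the members and 172 (9.91%) lower, a comparison of 2 libraries. All 10 measured immediate early factors were higher, 9 of them past 2-fold, beside a median ratio of 0.16 for all genes, and KLF2 and KLF4 had no UMI in the pre-processed set. Markers of other cell types moved as well. Of 9 measured neuronal markers 8 were at least 2-fold lower in the members, with CAMK2A at 0 against 113 UMIs, as were 5 of 5 astrocyte and 3 of 3 precursor markers. Of 5 endothelial markers 4 were at least 2-fold higher. The part of RNA from other cells in this comparison was not tested. The pre-processed set of 75 nuclei had 1 FOS UMI, 7 JUN UMIs and 4 NR4A1 UMIs in 116610 UMIs. IL1A had 4 UMIs there, in 4 nuclei, and DMP1 23, in 7 nuclei with a highest value of 9332 CPM. CALCR had 221 UMIs and was found in 52 of 75 nuclei, with a highest value of 28807 CPM, so nuclei rich in CALCR occurred in both libraries. INPP5D (0.16) and P2RY12 (-0.08) differed little, but the rule chose both sets by these genes, so their likeness is a description only. Of the other rule genes, CSF1R had 0.08, C1QC 1.3 and C1QB 4.14, the last on 59 against 1 UMIs. Outside the rule, TMCC3 stood at 10133 against 8593 CPM. Of 6 measured homeostatic genes outside the selection 5 were higher and 1 lower, MERTK at 1008 against 1492 CPM (-0.57, -0.85 to -0.28).

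Against the 25 post-processed nuclei with microglial and myelin RNA, 137 of 1808 genes (7.58%) were 2-fold higher and 171 (9.46%) lower in the members. FOS stood at 3381 against 2084 CPM (0.70), JUN at 2263 against 1499 (0.59) and INPP5D at 4675 against 2437 (0.94). The median over all genes was 0.25. At 500 UMIs the shares with FOS were 62.3% and 60%.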

How the data were processed

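Nuclear RNA was measured by droplet-based single-nucleus sequencing in 1 library per condition. The deposited matrices hold whole-number UMI counts per gene and barcode, not normalized, as the values show. DRAGEN is named in the submitters' processing notes. For its version, the genome build and the barcode calling rule, the sources used here give nothing. The series description gives about 5000 nuclei per condition, and the deposited files hold 3030 barcodes in all. Both matrices list 13765 features with 12652 symbols, all found in the RefSeq gene table used.

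The members and gene lists were chosen with earlier results of these data known. CPM is UMIs divided by the barcode's total over listed genes. No doublet caller was run. Groups were cut after thinning each nucleus to 500 UMIs (seed 20). The thinning scheme was changed after the first results had been seen: at first all nuclei shared a random stream, so leaving nuclei out also changed the draw of the rest, and each barcode then received its own. The first draw is kept as an alternative. Intervals are exact (95%) and cover counting error only. Shares use Clopper-Pearson, sums Poisson and ratios conditional binomial intervals. A share of 0 is limited by 3 counts over the nuclei in the set.

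Named genes are the given and selection genes, listed genes with at least 20 UMIs, the 12 highest and 12 lowest ratios with an interval that leaves out 0 (at least 30 UMIs), the 20 highest dispersion indices and the 10 genes most like FOS (at least 50 UMIs). Of these, 2 genes are not reported here. LYN and CALCR come from the dispersion rule, and single nuclei were picked after their values were seen. Symbols that are only locus identifiers are not named. Alternatives without the endothelial-rich members, without a gene's richest member, with equal weights, by the first draw and by 6 other genes were chosen after seeing the data. The statistics were tested on simulated data. There the counts for the ratios had counting noise alone, whereas the members had a median dispersion index of 1.66. The simulation therefore cannot show how well the ratio intervals hold for these nuclei. Python 3.11.15, numpy 2.4.6, scipy 1.17.1, pandas 2.3.3 and matplotlib 3.10.9 were used.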

Additional observations from a re-analysis of the deposited data

How the results depend on the processing

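The number of members was 32 with a minimum of 1000 detected genes. The share with FOS was 83.0% at 1000 UMIs and 85.1% without thinning, and the FOS dispersion index lay between 5.41 and 7.55 in 8 alternatives. Genes 2-fold higher and lower in FOS-positive members numbered 122 and 79 with no limit on myelin genes, 273 and 156 with FOS-positive set at 1 unthinned UMI, 240 and 145 at 3 or more against 0, 215 and 112 at 1000 UMIs, 16 and 2 with at least 100 UMIs per gene, 1106 and 1191 with no minimum, and 230 and 235 with members weighted equally. The scheme run first gave 92 and 71. The median ratio of immediate early factors was 0.34 with a minimum of 1000 genes, 0.98 with myelin genes under 1000 CPM, 0.89 without the deepest 10% of members, 2.11 and 1.93 at the unthinned limits of 1 and 3, 1.03 with another seed, 1.58 at 1000 UMIs, 0.44 in the cut by JUN and 1.06 with equal weights, so its direction held and its size did not. Against the pre-processed nuclei it was 3.50 without that 10%.

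Directions that turned were IL1A (-0.41 with a minimum of 1000 genes, -0.10 with another seed, -0.050 in the cut by JUN), DMP1 (-0.19 in the cut by JUN), the myeloid list (-0.011 in the cut by JUN), the feedback list (-0.0022 with equal weights) and the oligodendrocyte markers (-0.012 with myelin genes under 1000 CPM, -0.017 with no limit on them, -0.23 in the cut by JUN and -0.36 with equal weights). Against the pre-processed nuclei INPP5D turned to -0.16 with selection genes at 6000 CPM and -0.087 with no myelin limit, and the oligodendrocyte markers to 0.13 and 0.22. The cause was not tested. Scaling by the median of gene ratios moved the comparison with the pre-processed nuclei by 0.16. No paired analysis was possible because there was 1 library per condition. Depth limits the genes with few UMIs: a single draw at 500 UMIs decides much of which of them pass 2-fold.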
